A study of Homo sapiens with 4 samples.

Results

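ANP32A, ANP32B and ANP32E, 3 members of the acidic nuclear phosphoprotein 32 family, and SET, a histone chaperone that works beside them, were followed in Kasumi-1 cells whose ANP32B was silenced. These 4 genes were taken by name from the 18567 genes deposited, and all 4 were among the 16817 genes that passed a filter on low values. Kasumi-1 is an established acute myeloid leukemia line that carries a RUNX1-RUNX1T1 fusion. RNA was sequenced from 2 samples called NC and 2 samples called sh-ANP32B, which express a short hairpin RNA against ANP32B. The labels record the NC samples as untreated, whereas the study's methods describe a control hairpin delivered by lentivirus with puromycin selection, so effects of infection and selection cannot be told apart from the knockdown if NC carried no hairpin. The study says in general that its experiments were repeated independently 3 or more times. Whether the 2 samples of each group were separate cultures is not stated, and every p-value given here measures only the spread between these samples.

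ANP32 proteins pair a leucine-rich repeat domain at the amino terminus with a long acidic tail. They bind histones, and ANP32A and SET both inhibit protein phosphatase PP2A and histone acetylation. ANP32E differs from its relatives in that it recognises the histone variant H2A.Z and removes it from chromatin. ANP32A and ANP32B overlap in several roles, including the nuclear export of RNA bound by ELAVL1, so a loss of ANP32B raises the question of whether the RNA of its paralogs rises in its place.

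The 3 hairpins of the study are shown against the paralogs, because a hairpin can also act on other transcripts that it matches. The labels do not say which hairpin a given sample carried. The 21-base target of shRNA-1 lies in exon 6 of 7 of ANP32B at chr9:98012424-98012444 of hg38, that of shRNA-2 in exon 2 at chr9:97994679-97994699, and that of shRNA-3 in exon 4 at chr9:98005059-98005079. All 3 lie in coding sequence on the plus strand. Below each target stands the window with the fewest mismatches in the coding sequence of ANP32A and of ANP32E, and capitals mark the bases that differ from the target. Where several windows tied (2 in ANP32A and 4 in ANP32E for shRNA-1, and 2 in ANP32A for shRNA-3), 1 of them is shown.
shRNA-1 target in ANP32B: gaagaatttggacttgatgaa
ANP32A window for shRNA-1: gaTgaaGAAgAGcttgGtgaa
ANP32E window for shRNA-1: gaTTaaCCtggaGttAaGgaa
shRNA-2 target in ANP32B: gagggcttaacagctgaattt
ANP32A window for shRNA-2: gaAggcCtCacagAtgaattt
ANP32E window for shRNA-2: CCCggcttCCcagctTaaAtA
shRNA-3 target in ANP32B: gcttacctacttggatggcta
ANP32A window for shRNA-3: gGtAaccAacCtgAaCgActa
ANP32E window for shRNA-3: AAtCacAtacttAgatggAtT

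The closest paralog window was that of shRNA-2 in ANP32A, in exon 2 at chr15:68787851-68787871 on the minus strand, with 4 mismatches and a longest matched run of 7 bases. The other windows in ANP32A and ANP32E held 7 or 8 mismatches, and the best windows in SET held 6, 7 and 8. The coding sequences of ANP32B and ANP32A were identical at 73.1% of 735 aligned bases, and those of ANP32B and ANP32E at 70.4% of 746. Of the 50-base windows of the ANP32A, ANP32B and ANP32E transcripts, 0 were shared with another of the 4 genes, so reads of that length separate the paralogs. Outside the 4 genes, 7.11% of the ANP32A windows were shared with ANP32AP1, ANP32C or ANP32D. For ANP32B, 12.0% of the windows were shared with the pseudogene ANP32BP1. These copies were not analysed here. For SET, 14.4% of the windows were shared with other genes, most of them SET pseudogenes.

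ANP32B fell in sh-ANP32B to 12.0% of its NC level, while the mean levels of ANP32A, ANP32E and SET were also below those of NC by differences that did not pass the test. Levels are given in TPM, which divides the signal of a gene by its length and by the total of its sample, so that genes can be compared with each other. ANP32B (ENSG00000136938, chromosome 9, 97983341 to 98015943, plus strand) stood at 383.8 TPM in the first NC replicate and 392 TPM in the second, against 51.8 and 41.2 TPM in the knockdown replicates. Every NC sample lay far above every sh-ANP32B sample. The log2 fold change of sh-ANP32B over NC, called the log2 change from here on, was -3.04 on the log2(TPM + 1) scale (SE 0.150, limma adjusted p 0.00516), and only 2 of the 16817 tested genes had a lower one. Without limma's abundance trend the adjusted p was 0.0929 at the same fold change.

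**Figure D1:**
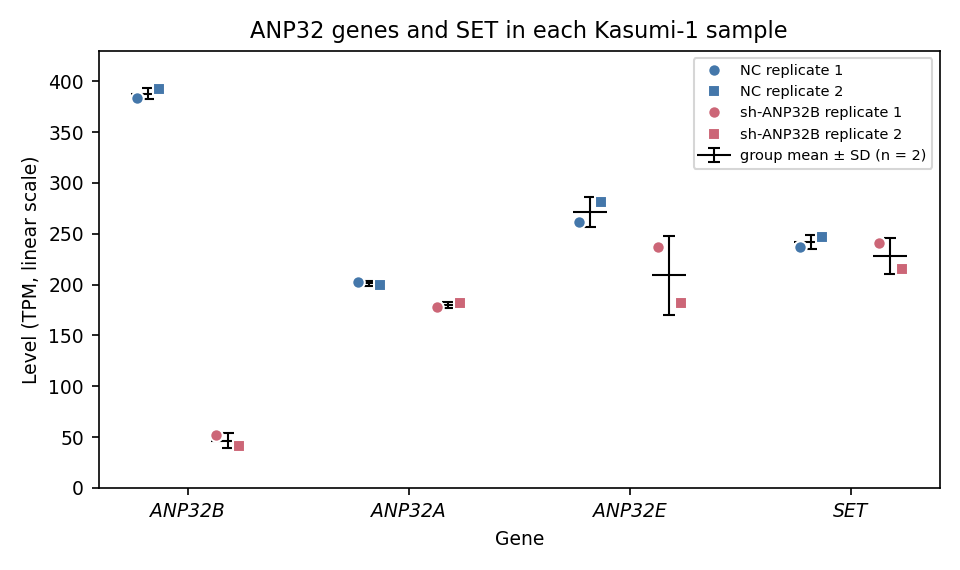
Levels in TPM (vertical axis, linear) of ANP32B, ANP32A, ANP32E and SET in the 2 NC samples (blue) and the 2 sh-ANP32B samples (red), circles for replicate 1 and squares for replicate 2, with group means and SD in black. ANP32B dropped from about 388 to 46.5 TPM, ANP32A and ANP32E lay somewhat lower in sh-ANP32B, and the SET samples overlapped between the groups.

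ANP32A (ENSG00000140350, chromosome 15, 68778535 to 68820897, minus strand), the closest relative of ANP32B, stood at 202.9 and 199 TPM in the controls, against 177.7 and 182 TPM after knockdown. Both sh-ANP32B samples lay below both NC samples, and the replicates of each group were close together. Group means were 201 ± 2.66 TPM for NC and 179.8 ± 2.94 TPM for sh-ANP32B (SD, n = 2 each). The log2 change of -0.16 (SE 0.119) did not pass the test (limma adjusted p 0.461). Its 95% interval ran from -0.44 to 0.12, that is a change between -26.5% and 8.92%.

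ANP32E (ENSG00000143401, chromosome 1, 150218417 to 150236156, minus strand), the H2A.Z chaperone, gave 261 and 282 TPM for the NC samples, then 237 and 182 TPM for the knockdown samples. Both sh-ANP32B samples again lay below NC, but the sh-ANP32B samples also lay far apart, by 0.38 on the log2 scale against 0.11 between the NC samples. Group means were 271 ± 14.5 TPM for NC and 209 ± 38.8 TPM for sh-ANP32B (SD, n = 2 each), and the log2 change was -0.39 (SE 0.159, 95% interval -0.77 to -0.01). This did not pass the test over all genes (limma adjusted p 0.205, unadjusted p 0.0475). The value rested on sh-ANP32B replicate 2, since without it the log2 change was -0.20, and without replicate 1 it was -0.57.

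The transcript of ANP32E is poor in guanine and cytosine, and that property moved with the spread between the sh-ANP32B samples. Its GC content was 35.9%, lower than that of all but 3.64% of the tested genes. Across 15427 genes the difference between sh-ANP32B replicates 2 and 1 followed GC content with a Spearman rho of 0.577, a description of these libraries in which genes are not independent, and the rho was -0.206 between the NC replicates. After a GC correction in each sample, the log2 change of ANP32E was -0.44 and passed the test (limma adjusted p 0.0143). With the replicate number as a block as well, the limma adjusted p was 0.0413. These fits called 2534 and 1806 of 15427 genes, against 559 of 16817 without the correction, so such a call is much more common in them. ANP32A, whose longest transcript, the one the correction uses, has 51.2% GC (percentile 60.1) and whose canonical transcript has 43.7%, had a log2 change of -0.24 after the correction (limma adjusted p 0.0664).

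SET (ENSG00000119335, chromosome 9, 128683424 to 128696400, plus strand) inhibits PP2A and binds the ANP32 proteins in the SET complex. It measured 237 and 247 TPM in the NC pair and 241 and 216 TPM in the knockdown pair, so that the groups overlapped. NC averaged 242 ± 6.81 TPM and sh-ANP32B 228 ± 17.6 TPM (SD, n = 2 each), and the log2 change was -0.09 (SE 0.126, limma adjusted p 0.728). The 95% interval ran from -0.39 to 0.21, or a change between -23.5% and 15.9%.

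Across the 4 genes, 1 was called lower at a limma adjusted p under 0.05 and 0 were called higher. Of all tested genes 3.32% were called, 1.18% lower and 2.14% higher. The groups did not overlap for 3 of the 4 genes, against 54.6% of all tested genes, so the separation seen for ANP32A and ANP32E is common in these data. The median log2 change of all tested genes was 0.08, and the 3 genes other than ANP32B lay at percentiles 27.9 (ANP32A), 14.1 (ANP32E) and 33.9 (SET) of that distribution.

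**Figure D2:**
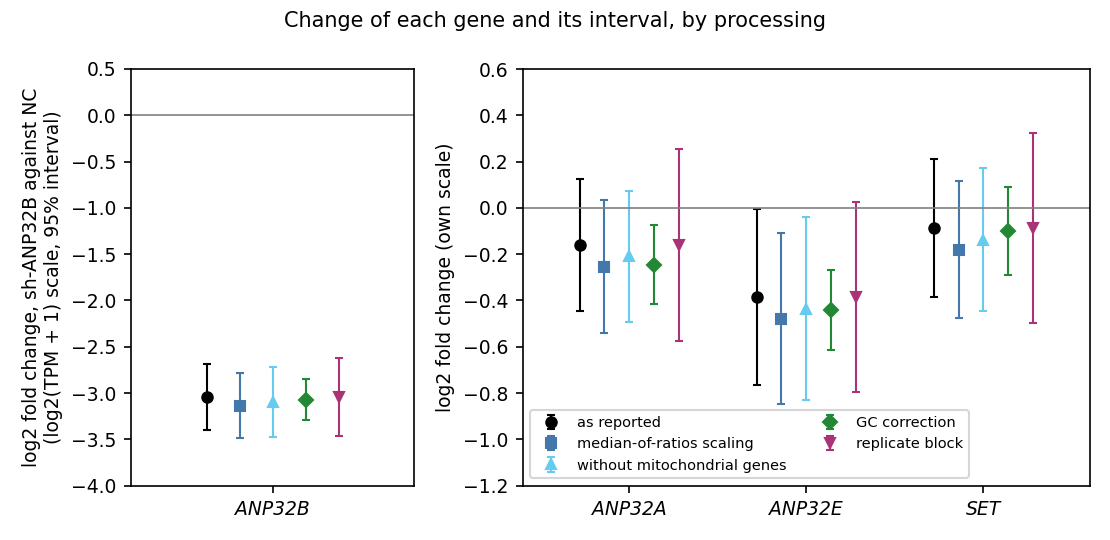
Log2 fold change of sh-ANP32B against NC with its 95% interval (vertical axes, log2(TPM + 1) scale, different ranges in the panels) for ANP32B at left and ANP32A, ANP32E and SET at right, under 5 ways of processing. All values lie below 0, the intervals of ANP32A include 0 except after GC correction, those of SET include 0 in each case, and those of ANP32E end below 0 except with the replicate number as a block.

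The SET pseudogene SETP14 was the other family sequence that could be read in the table. SETP14 (ENSG00000240489, chromosome 3, 155987304 to 155988176, plus strand) is a processed copy of the SET messenger RNA. It stood at 1.91 and 1.75 TPM in the controls, against 5.66 and 2.94 TPM after knockdown, with a log2 change of 0.86 (SE 0.333) that did not pass the test (limma adjusted p 0.187). Both sh-ANP32B samples were above NC, with the higher value in replicate 1. SETP14 shares 330 of the 2878 50-base windows of SET, or 11.5%, so its low level is uncertain. The share of the shorter SETP14 sequence is larger and was not computed. Without sh-ANP32B replicate 2 the log2 change of SETP14 was 1.24, and without replicate 1 it was 0.48.

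Adding the paralogs to ANP32B shows how the family as a whole changed. The sum of ANP32A, ANP32B and ANP32E was 848 and 873 TPM in the NC samples, and 466 and 405 TPM in the sh-ANP32B samples. The mean fell from 860.3 ± 17.6 TPM to 435 ± 43.4 TPM (SD, n = 2 each), which is 50.6% of NC. An exact permutation test of 2 samples against 2 gave a two-sided p of 0.333, the smallest it can give, so this design cannot pass a threshold of 0.05 by that test. In bulk RNA, fewer cells with a transcript and less of it per cell cannot be told apart.

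The paralogs did not make up the lost ANP32B RNA. ANP32B lost 341 TPM between the group means, whereas ANP32A and ANP32E together went from 464 and 481 TPM (NC) to 414 and 364 TPM (knockdown), a change of -83.5 TPM. To restore the NC sum, both would have had to reach 1.72 times their NC level, a log2 change of 0.78. The upper 95% bounds were 0.12 for ANP32A and -0.01 for ANP32E, and over every alternative fit, those without 1 sample included, the highest upper bounds were 0.47 and 0.28.

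**Figure D3:**
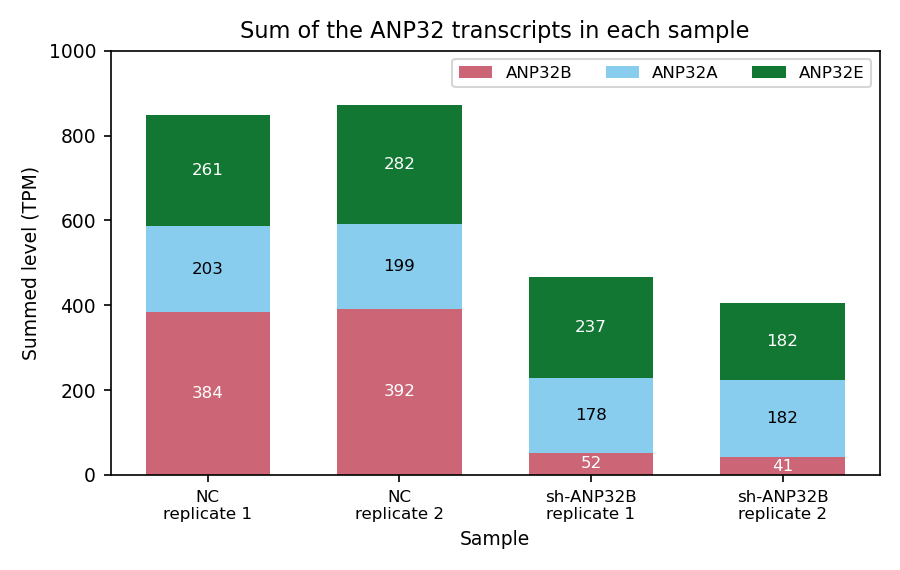
Summed level of ANP32B (red), ANP32A (light blue) and ANP32E (green) in TPM (vertical axis) in each of the 4 samples, with the level of each gene written in its bar. The bars of the sh-ANP32B samples reach 466 and 405 TPM against 848 and 873 TPM in NC, and the red part lost 341 TPM on average while the other parts together changed by -83.5 TPM.

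The make-up of the sum changed although neither paralog was called higher. ANP32B was the largest part of the sum in NC, with 45.3% and 44.9%, and the smallest in sh-ANP32B, with 11.1% and 10.2%. ANP32A went from 23.9% and 22.8% to 38.1% and 44.9%, and ANP32E from 30.8% and 32.3% to 50.8% and 44.9%. These larger shares reflect a smaller sum, as the levels of both genes were lower. SET had 0.280 and 0.283 TPM for each TPM of the ANP32 sum in NC, and 0.516 and 0.533 in sh-ANP32B.

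The order of the 4 levels also changed. In NC it was ANP32B, ANP32E, SET and ANP32A, and no neighbours in that order overlapped between samples. In sh-ANP32B it was SET, ANP32E, ANP32A and ANP32B. There SET overlapped with ANP32E and ANP32E with ANP32A, so only the last place of ANP32B was separated from its neighbour. Among the 16817 tested genes, ANP32B was the 292nd highest by its mean level in NC and the 4009th in sh-ANP32B, while ANP32A moved from 676th to 803rd, ANP32E from 437th to 644th and SET from 520th to 569th.

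Ratios between genes of the same sample do not move with the scaling of that sample. The log2 ratio of ANP32B to ANP32A was 0.92 and 0.97 in NC, and -1.76 and -2.12 in sh-ANP32B, a difference of -2.88 (SE 0.181). ANP32B to ANP32E gave 0.55 and 0.48 in NC and -2.17 and -2.12 in sh-ANP32B, a difference of -2.66 (SE 0.0474). The sh-ANP32B replicates were thus closer in this ratio than in the level of either gene, as both genes were lower in replicate 2. Among the other members, the log2 ratio of ANP32A to SET overlapped between the groups, with -0.22 and -0.31 in NC and -0.43 and -0.25 in sh-ANP32B. The ratio of ANP32E to SET was 0.14 and 0.19 in NC and -0.02 and -0.25 in sh-ANP32B, with no overlap, and the exact permutation p was 0.333 for each ratio that did not overlap.

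**Figure D4:**
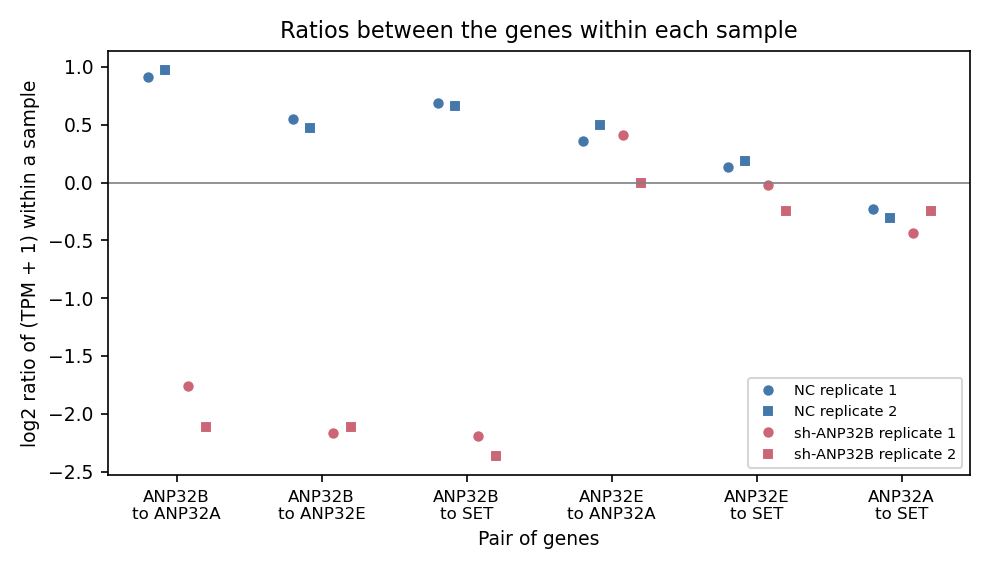
Log2 ratio of TPM + 1 between pairs of the 4 genes within each sample (vertical axis), for NC (blue) and sh-ANP32B (red), with circles for replicate 1 and squares for replicate 2. The 3 ratios that hold ANP32B drop from above 0.4 to below -1.7, and the ratios among ANP32A, ANP32E and SET stay within 0.5 of 0.

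Genes that bind or act with these proteins were read from 7 lists of 78 genes, of which 67 were tested. H2AZ1 was called lower, 0 genes were called higher, and 1.49% of the 67 genes were therefore called, against 3.32% of all tested genes. At an unadjusted p under 0.05 there were 13 of the 67 genes, against 3995 of all 16817, which is no larger a share. The median log2 change of the 67 genes was -0.05, against 0.08 over all tested genes.

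H2AZ1 encodes the main form of H2A.Z, the histone that ANP32E removes from chromatin. It gave 605 and 634 TPM for the NC samples, then 386 and 403 TPM for the knockdown samples, with a log2 change of -0.65 (SE 0.118, limma adjusted p 0.0442). The groups lay well apart. Without 1 of the NC samples the adjusted p was 0.331 or 0.435, with log2 changes of -0.68 and -0.62, and without the abundance trend it was 0.139. H2AZ2, which encodes the other form, measured 244 and 236 TPM in the NC pair and 217 and 223 TPM in the knockdown pair (log2 change -0.13, limma adjusted p 0.574). The other 21 genes of the list, subunits of the SRCAP, TIP60-p400 and INO80 complexes that exchange H2A.Z, did not pass. The median of the list was -0.13, and 14 of its 23 tested genes had negative log2 changes. Of the uncalled genes, ACTL6A (log2 change -0.67, limma adjusted p 0.0755) and RUVBL1 (-0.66, limma adjusted p 0.0713) had values as low as that of H2AZ1.

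PP2A, the phosphatase that ANP32A and SET inhibit, had 0 of 26 tested genes called in either direction. Its catalytic subunit gene PPP2CA stood at 54.6 and 54.4 TPM in the controls, against 60.2 and 50.9 TPM after knockdown, and its scaffold gene PPP2R1A gave 82.1 and 91.3 TPM for the NC samples, then 85.6 and 100.3 TPM for the knockdown samples. The samples of the groups overlapped for both. The most abundant regulatory subunit genes, PPP2R5C and PPP2R5D, had log2 changes of -0.06 and -0.05. The median was 0.06 for the 4 catalytic and scaffold genes (range -0.65 to 0.28) and -0.02 for 12 regulatory subunits (-0.36 to 0.58). It was -0.05 for 10 other inhibitors and modifiers (-0.56 to 0.29). Among the last, ENSA, an inhibitor of PP2A during mitosis, had a log2 change of -0.31 (limma adjusted p 0.233), and PTPA, an activator of PP2A, of -0.06 (limma adjusted p 0.878). Without sh-ANP32B replicate 2 ENSA was at -0.44, and without replicate 1 it was at -0.19.

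The SET complex also holds HMGB2, APEX1, NME1 and TREX1, which bend, cut or trim DNA. All 4 had negative log2 changes with a median of -0.43, and 0 passed the test. HMGB2 measured 913 and 982 TPM in the NC pair and 661 and 626 TPM in the knockdown pair, and its log2 change was -0.56 (limma adjusted p 0.0590), and over the alternatives that kept all samples the adjusted p ran from 0.0164 to 0.163. Without 1 of the sh-ANP32B samples its log2 change was -0.60 or -0.52, and without 1 of the NC samples -0.61 or -0.50. APEX1, a repair endonuclease, had a log2 change of -0.30 (limma adjusted p 0.291). The change was -0.12 without sh-ANP32B replicate 1 and -0.48 without replicate 2. The NAP1 relatives of SET had 0 of 4 tested genes called, with a median of -0.08. NAP1L1, the most abundant, stood at 527 and 585 TPM in the controls, against 776 and 370.1 TPM after knockdown, so its sh-ANP32B samples lay on either side of NC, and NAP1L4 had a log2 change of -0.01. NAP1L1 was at -0.58 without sh-ANP32B replicate 1 and at 0.48 without replicate 2, so its direction depended on which sample was kept.

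The last list held partners named for these proteins, among them the RNA-binding protein ELAVL1, the export receptor XPO1, the acetyltransferases EP300 and CREBBP and the myeloid factor SPI1. Of its 10 tested genes 0 were called, and the median was 0.15. SPI1 gave 250.6 and 241 TPM for the NC samples, then 301 and 364 TPM for the knockdown samples (log2 change 0.43, limma adjusted p 0.131). After GC correction its log2 change was 0.16 (limma adjusted p 0.258). It was 0.56 without sh-ANP32B replicate 1 and 0.29 without replicate 2, and 0.45 or 0.40 without 1 of the NC samples. XPO1 measured 219 and 246 TPM in the NC pair and 230.2 and 152 TPM in the knockdown pair (log2 change -0.31, limma adjusted p 0.419). Its value rested on sh-ANP32B replicate 2, with -0.0087 without that sample and -0.60 without replicate 1.

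The proliferation markers were lower in sh-ANP32B than in NC. All 10 had negative log2 changes with a median of -0.80, and 5 were called lower, against 1.18% of all tested genes. Their summed level was 2359 and 2442 TPM for the NC samples, against 1516 and 1341 TPM after knockdown. The sum was lowest in sh-ANP32B replicate 2, but the markers did not all differ that way between the knockdown replicates. MCM2 (96.4 and 112 TPM in replicates 1 and 2) and TYMS (123.2 and 154.9 TPM) were higher in replicate 2, and the other markers were lower there. The called genes were MCM6, PCNA, MCM2, MKI67 and TYMS, with log2 changes of -0.95, -0.95, -0.95, -0.90 and -0.88. Without 1 of the NC samples the adjusted p of the first 4 lay between 0.0748 (MCM2) and 0.163 (MKI67), and without the abundance trend between 0.114 and 0.116. H2AZ1 and HMGB2 are known to be more abundant in dividing cells, and the part of proliferation in their values and in those of ANP32E was not tested.

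**Figure D5:**
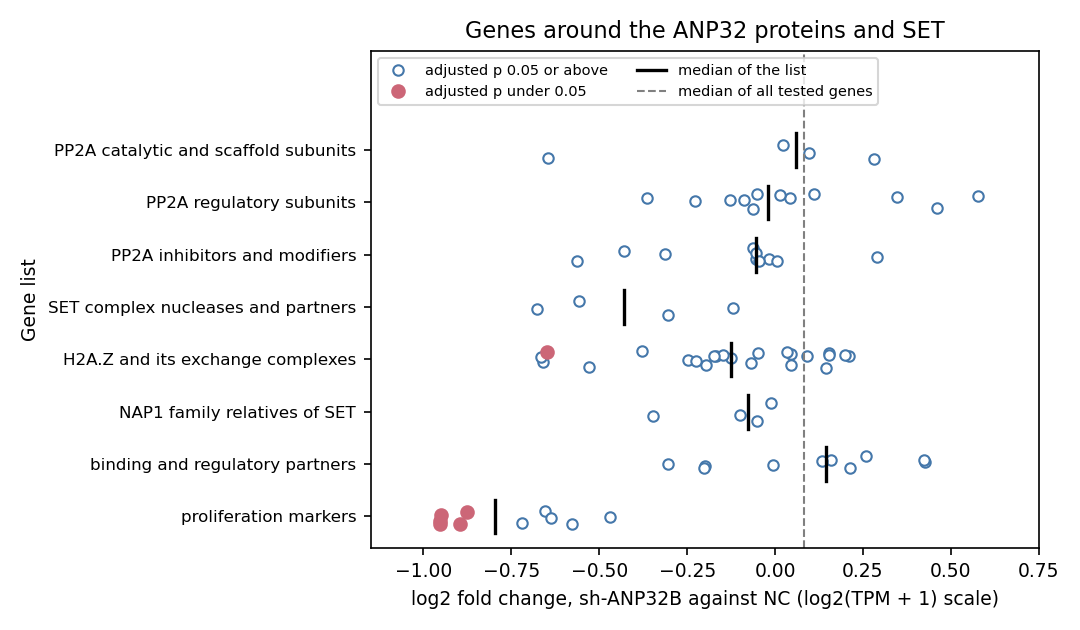
Log2 fold change of sh-ANP32B against NC (horizontal axis, log2(TPM + 1) scale) of each tested gene in the 7 lists and among the proliferation markers (vertical axis), with filled points for a limma adjusted p under 0.05, black bars for list medians and a dashed line at the median of all tested genes. H2AZ1 is the filled point among the 7 lists, and 5 of the 10 proliferation markers are filled.

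The genes with profiles most like those of the members were found among 9742 others with a mean of at least 10 TPM. Likeness was the root mean square difference of log2(TPM + 1) over the 4 samples, with every gene centred on its own mean. For ANP32B the nearest were PSMB5, ANXA2P2 and MT-TR, at distances of 0.604, 0.747 and 0.749, and 0 genes lay within 0.1. ANXA2P2 is a processed copy of ANXA2 and MT-TR a very short mitochondrial gene, so both levels are uncertain.

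The other members had many genes close by. SF1, CTCF and DDIT3 were nearest to ANP32A, at 0.00485, 0.00627 and 0.0107, and 1007 genes lay within 0.1. XPO4, DDX20 and LRRC40 were nearest to ANP32E, at 0.00675, 0.0118 and 0.0122, with 539 genes within 0.1. STK38, PIK3AP1 and FRG1HP, the last of them a pseudogene, were nearest to SET, at 0.00801, 0.0113 and 0.0131, with 1288 genes within 0.1. The distances were not scaled to the size of a change, so they depend on how far each gene moved. ANP32B had a log2 change of -3.04, against -1.91 for PSMB5, its nearest gene among those compared. The other members moved far less, and each had at least 539 genes within 0.1. These counts therefore cannot show whether the profile of ANP32B differs from others in more than the size of its fall. Genes under the floor on mean level were not compared.

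The label of the cells was checked against 7 markers, of which CD34 and MPO were not analysed here. RUNX1T1, which blood cells seldom express outside the fusion, measured 17.6 and 15.6 TPM in the NC pair and 31.2 and 26.8 TPM in the knockdown pair (log2 change 0.77, limma adjusted p 0.0632). ANPEP, a surface protein of myeloid cells, stood at 87.6 and 81.7 TPM in the controls, against 124.5 and 134 TPM after knockdown (log2 change 0.61, limma adjusted p 0.0581), and CD33, another, ranged from 58.5 to 70.1 TPM. KIT, a receptor usually found on this line, was low at 1.55 to 3.41 TPM. All 5 markers tested had positive log2 changes with a median of 0.49, and 0 were called. Of the markers of other cell types, PECAM1, which endothelial and many blood cells express, had between 34.9 and 58.7 TPM.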

How the data were processed

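The deposited table holds TPM values, one column per sample, and the authors aligned the reads to hg38 with HISAT2 (v2.0.5, as in the submitters' processing notes). How the TPM values were made, their gene annotation and any filter are not given in the sources used here. TPM keeps no depth, so sequencing depth is unknown and no counting interval was computed. The columns summed to 997812 to 998314, and mitochondrial genes took 8.43% to 13.1% of them.

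Gene IDs were named through GENCODE v44 (hg38), which held 16986 of 18567. A gene was kept if 2 or more samples reached 1 TPM, and values were taken as log2(TPM + 1), so the change of low genes is understated. The 4 samples entered 1 limma fit (version 3.58.1, under R 4.3.3) whose prior variance follows abundance. Its two-sided p-values were adjusted after Benjamini and Hochberg across all 16817 genes kept. The study's own test needs counts and was not run. This fit was tested on simulated data. Hairpin targets were read from the GENCODE transcript of ANP32B at the positions that the study's hairpins match, and checked against the genome sequence. Coding sequences were aligned with Biopython 1.88, and shared windows were 50 bases on either strand over all GENCODE transcripts. Whether counting used strand is not stated. No value above 0 was identical between replicates.

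The members and gene lists were chosen with earlier results of these data known. Named genes are the members, their copies, up to 4 called genes of each list or else its 2 most abundant, and the 3 nearest profiles of each member. TYMS, H2AZ2, ACTL6A, RUVBL1, NME1, TREX1, ELAVL1, EP300 and CREBBP were named in addition, after their values were seen. So were the cell markers RUNX1T1, ANPEP, CD33, KIT, CD34, MPO and PECAM1. A marker of another cell type is not reported here.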

Additional observations from a re-analysis of the deposited data

How the results depend on the processing

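In 13 alternative fits the log2 fold change of ANP32B ran from -3.14 to -3.04, and its call was lost only without limma's abundance trend, at -3.04 (limma adjusted p 0.0929). ANP32A and SET stayed negative and uncalled in the same fits, from -0.25 to -0.16 and from -0.18 to -0.09. ANP32E was called under GC correction, alone or joined to the replicate block, at -0.44 in both. Leaving out 1 sample, with the lone sample of its group assumed to vary like the others, gave -3.20 to -2.88 for ANP32B, -0.18 to -0.14 for ANP32A, -0.57 to -0.20 for ANP32E and -0.17 to -0.01 for SET. The ANP32 sum was 47.4% of NC after median-of-ratios scaling, 48.96% without mitochondrial genes and 47.1% to 54.2% without 1 sample. The log2 ratio of ANP32B to ANP32A changed by -2.91 to -2.88 in 3 alternatives and by -3.06 to -2.70 without 1 sample.

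The groups share replicate numbers 1 and 2. The deviations of samples with the same number were not positively related (Pearson r -0.0925, Spearman rho -0.168 across 16817 genes). The main fit did not take the numbers as pairs. With 2 samples a group, these correlations cannot show whether samples with the same number were handled together. The count of called genes, 559, rose to 1473 under the replicate block, to 2534 under GC correction and to 1806 under both, and was 966 over protein-coding genes, 0 without the abundance trend (limma, with 3701 at an unadjusted p under 0.05), and 282 to 3947 without 1 sample. Of those called, 199 were lower and 360 higher, against 294 and 236 after median-of-ratios scaling, which moved the median of all genes from 0.08 to 6e-04, 232 and 257 after upper-quartile scaling, 1373 and 1161 under GC correction, and 234 and 244 with quantile normalization. The count of 1 in the pathway lists became 10 under GC correction, 4 under the replicate block, 7 under both, 3 over protein-coding genes, 2 each with at least 1 TPM in every sample, with median-of-ratios scaling and without mitochondrial genes, 0 without the abundance trend (limma, with 8 at an unadjusted p under 0.05), and 0 to 15 without 1 sample. The causes of these shifts were not tested.

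Among the uncalled pathway genes, PPP2R1A turned to -0.022 under GC correction, alone or joined to the replicate block. PPP2CA turned to -0.071, -0.048, -0.040 and -0.027 with median-of-ratios scaling, quantile normalization, upper-quartile scaling and without mitochondrial genes. Without 1 sample the ranges crossed 0 for PPP2R1A (-0.017 to 0.21), PPP2CA (-0.10 to 0.14), PPP2R5C (-0.27 to 0.15), PPP2R5D (-0.15 to 0.041), PTPA (-0.30 to 0.17), NAP1L1 (-0.58 to 0.48) and NAP1L4 (-0.16 to 0.13). With 2 samples a group and unknown depth, the intervals of SET included 0 in every fit, and those of ANP32A in every fit but the 2 with GC correction.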
